A study of Mus musculus with 12 samples.

Results

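Homozygous deletion of Bcl6 was examined in follicular B cells, the recirculating naive B cells that fill the follicles of the spleen. The comparison set 2 arrays of cells labelled mb1-cre(+/-)Bcl6(flox/flox) against 2 arrays labelled mb1-cre(+/-)Bcl6(+/+), which were 4 of the 12 arrays of the series, chosen by cell type and genotype in the labels alone. The flox/flox cells could lose both Bcl6 alleles and are called homozygous below, and the +/+ cells carried no floxed allele and are called wild-type. Another pair of follicular arrays from mb1-cre(+/-)Bcl6(+/flox) mice, called heterozygous, and 6 arrays of marginal zone B cells with the same 3 genotypes served only to estimate the spread or to show where the follicular result differed. All mice were C57BL/6 females aged 10 weeks, and every mouse, the wild-type ones included, carried 1 copy of mb1-cre, a Cre recombinase driven from the mb1 (Cd79a) locus in the B lineage from early bone marrow stages onward. Splenocytes were depleted of cells bearing CD5, CD43, CD95, CD138 and markers of T, myeloid and erythroid cells, and follicular cells were then sorted as B220+AA4.1-CD21intCD23+. No label states that the arrays of a genotype were made from different mice, and the p-values therefore cover only the variation between the arrays at hand, part or all of which may be technical.

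BCL6 is a zinc finger protein that binds DNA and represses transcription by recruiting the corepressors NCOR1, SMRT and BCOR through its BTB domain. It is best known for its high level in germinal centre B cells, where it is needed for the germinal centre to form and where it holds back cell cycle inhibitors, the DNA damage response and plasma cell genes. Its DNA motif resembles that of the STAT factors. The comparison below concerns its removal from resting, naive B cells.

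Levels are log2 values of GCRMA, so that 1 unit is a 2-fold difference. The method corrects each probe for sequence-dependent background and sets the arrays to 1 distribution. Many undetected genes collect at the minimum of 2.21 on the follicular arrays. Some probe sets repeated a higher value on several arrays, such as E2f1, at 3.53 on all heterozygous and wild-type follicular arrays, and Ptprs, at 5.11 on both heterozygous arrays. Whether such values are background was not tested, so a level above the minimum need not mean detection. Array pairs of the same follicular genotype correlated at 0.978 to 0.979 over the 9307 genes tested, and the Gapdh 3' minus 5' difference, a measure of RNA integrity, lay between -0.17 and 0.63 on the 6 follicular arrays. The 12 follicular B cell markers on the table, among them Ms4a1, Cd79b, Pax5 and Fcer2a, ranged from 6.58 to 15.40 on the 4 arrays compared, and none passed the threshold. Of the markers of other cells, 9 of 9 natural killer, 8 of 10 T cell, 7 of 10 erythroid and 11 of 12 stromal or endothelial genes lay within 0.5 of the minimum on every follicular array, as did 6 of 12 macrophage, 5 of 9 dendritic cell and 5 of 12 neutrophil genes. The macrophage genes above it included Adgre1, at 6.41 and 5.71 on the homozygous arrays, against 5.72 and 5.38 on the wild-type arrays. The mean of the macrophage list was 3.69 and 3.24 on the homozygous arrays, 3.85 and 3.24 on the heterozygous arrays, and 3.75 and 3.17 on the wild-type arrays, higher on replicate 1 of each genotype. Of 12 neutrophil genes, 4 (S100a8, S100a9, Ngp and Camp) stood out among the follicular arrays on replicate 1 of the homozygous and of the heterozygous group. S100a8 was at 9.17 and 2.66 on the homozygous arrays, against 2.60 and 2.61 on the wild-type arrays, and S100a9 at 9.81 and 2.24 against 2.21 on both. The mean of the neutrophil list was 4.47 and 2.41 on the homozygous arrays, 3.61 and 2.41 on the heterozygous arrays, and 2.40 and 2.44 on the wild-type arrays, and its part in the results was not tested. The calls lost without homozygous replicate 1 are counted with those of the other arrays at the end. No gene of the 13 marker lists passed the threshold. In sorted bulk cells, fewer cells of a type and less RNA per cell cannot be told apart.

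Bcl6 itself was read by 2 probe sets that moved in opposite directions. Probe set 1450381_a_at was at 2.36 and 2.48 on the homozygous arrays, near the minimum, at 4.93 and 4.86 on the heterozygous arrays, and at 4.94 and 5.61 on the wild-type arrays. The homozygous arrays were lower than the other follicular arrays, with a change of -2.86 ± 0.19 (SE of the model, limma adjusted p = 0.0132 over 34958 probe sets, of which 24 or 0.0687% were called). This probe set was at the minimum of 2.22 on every marginal zone array, a spread of 0 that can make the p too small. With the follicular arrays only, the limma adjusted p was 0.379. Probe set 1421818_at was at 12.70 and 12.88 on the homozygous arrays, 11.91 and 12.11 on the heterozygous arrays, and 11.95 and 11.65 on the wild-type arrays. The homozygous arrays were again apart from the rest, here above them, and the change of 0.99 ± 0.22 did not pass the threshold (adjusted p = 0.464). The floxed exons and the exons that each probe set reads are not given in the sources used here, and the genotype labels could not be checked with them. Transcript carrying the sequence of 1421818_at was abundant in cells labelled homozygous. The lower probe set lost its call without any 1 marginal zone heterozygous array (adjusted p = 0.0571) or marginal zone homozygous array (0.0518), arrays that enter only through the spread.

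In follicular cells 40 of the 9307 genes tested (0.43%) passed a limma adjusted p of 0.05 with homozygous deletion. Of these, 35 were higher (0.376% of genes tested) and 5 lower (0.0537%), while over all genes tested the median change was 0 and 49.3% of changes were positive. The change was over 1 log2 unit in 39 of the 40. In all 40 the homozygous arrays did not overlap the wild-type arrays, which was also so for 18% of all tested genes in the upward and 15.9% in the downward direction. At a limma p under 0.05 before adjustment there were 649 genes (6.97%), 425 higher (4.57%) and 224 lower (2.41%). Of the called genes 4 (Pik3r6, Adgrl2, Enkur and Gm3227) met the filter on low values only through the homozygous follicular arrays, so that they could enter the test only if they were high there. The genes called lay on 15 chromosomes, and 1 of them, Slc49a4, lay on chromosome 16, which carries Bcl6. Another 27 genes had an adjusted p from 0.05 to 0.1, of which 22 had positive changes, led by Ski, a transcriptional corepressor (0.95 ± 0.16, adjusted p = 0.0567), and Samsn1, an adaptor protein of lymphocytes (-1.48 ± 0.25, adjusted p = 0.0567).

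**Figure D1:**
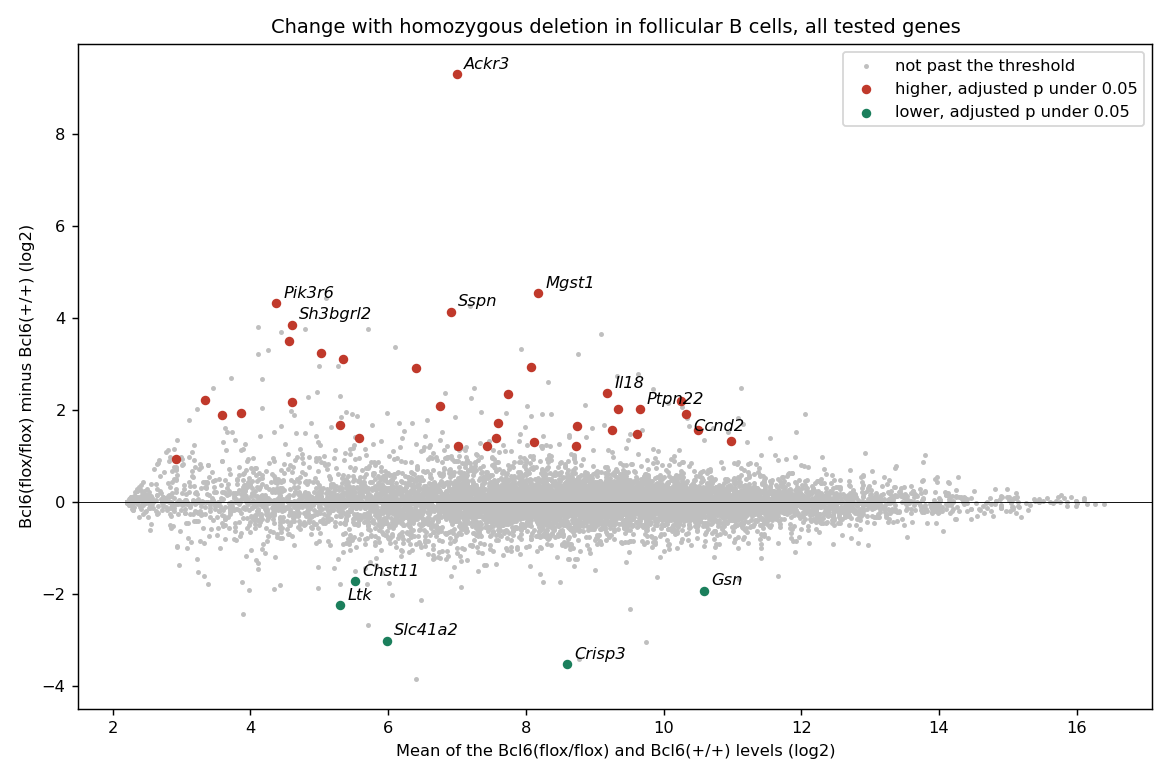
Change between homozygous and wild-type follicular B cells (vertical axis, log2) against the mean level of both groups (horizontal axis, log2), with 1 point per tested gene. The 35 genes called higher (red) outnumber the 5 called lower (green), and Ackr3, with a change of 9.29, lies far above all others.

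The gene with the greatest change was Ackr3, which encodes an atypical chemokine receptor that binds and removes CXCL12. It was at 12.15 and 11.14 on the homozygous arrays, at 7.15 and 2.94 on the heterozygous arrays, and at 2.35 on both wild-type arrays. Both homozygous arrays were far above the wild-type arrays, which were near the minimum, and the heterozygous arrays disagreed with each other. The change of 9.29 ± 1.08 (limma adjusted p = 0.0114) therefore rests on a wild-type level that the background correction sets. The call was lost when either homozygous array or either wild-type array was left out (adjusted p up to 0.127). Among 13 tested chemokine and homing receptors Ackr3 was the 1 that rose, none fell, and the median change of the list was -0.17, with Cxcr5, Ccr7, Cxcr4, S1pr4 and Gpr183 not past the threshold. Cxcr5, which guides B cells into follicles, was at 10.64 and 12.11 on homozygous arrays and 12.43 and 12.47 on wild-type arrays.

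Pik3r6 encodes a regulatory subunit (p84) of phosphoinositide 3-kinase gamma, the form that acts downstream of G protein-coupled receptors. It was at 6.71 and 6.36 on the homozygous arrays and at the minimum of 2.21 on every heterozygous and wild-type array. The change was 4.32 ± 0.17 (limma adjusted p = 2.34e-05), and it ran from 4.15 to 4.50 with 1 homozygous or wild-type array left out. Pik3r6 met the filter on low values only through the homozygous arrays, so it could be tested only if high there. Its spread of 0 in the heterozygous and wild-type groups can make the p too small. A second probe set for Pik3r6 read 3.77 and 4.83 on the homozygous arrays, against 2.21 on both wild-type arrays, but only 1 of its values reached 4, so it does not count as measured. Pik3r5, the other regulatory subunit of the same kinase, was at 8.70 and 8.63 against 6.87 and 7.48, a change of 1.49 ± 0.29 that did not pass (adjusted p = 0.107). The catalytic subunit Pik3cg had a change of -0.45 ± 0.19 (adjusted p = 0.697). Of 13 tested kinase subunits and phosphatases of this pathway 1 rose and none fell, and the median change was 0.

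Several other surface receptors and secreted signals rose. Il18, a cytokine of the interleukin-1 family, was at 10.23 and 10.50 on the homozygous arrays, at 8.89 and 8.81 on the heterozygous arrays, and at 7.85 and 8.14 on the wild-type arrays. The 3 genotypes did not overlap, and the homozygous level was 5.17-fold that of wild-type (change 2.37 ± 0.18, adjusted p = 0.00161, at most 0.0226 with 1 array left out). Adgrl2, an adhesion G protein-coupled receptor of the latrophilin family, was at 6.63 and 6.01 on the homozygous arrays. It was between 2.76 and 2.86 on the heterozygous and wild-type arrays, a change of 3.51 ± 0.44 (limma adjusted p = 0.0156). Adgrl2 met the filter on low values only through the homozygous arrays. Heterozygous and wild-type arrays overlapped for this gene, and so they did for Plxna1, a semaphorin receptor that was at 4.62 and 5.06 in homozygous, against 2.95 and 2.84 in wild-type cells. Notch1, the receptor of a pathway whose member Notch2 directs marginal zone fate, was at 9.38 and 9.31 on the homozygous arrays, 8.66 and 8.61 on the heterozygous arrays, and 8.25 and 7.98 on the wild-type arrays. These 3 levels were again in steps, with a change of 1.23 ± 0.18 (adjusted p = 0.0363). Smaller rises were seen for Ptprs, a receptor tyrosine phosphatase (1.40 ± 0.21), and Adam19, a membrane-bound metalloprotease (1.33 ± 0.21). Ltk, a receptor tyrosine kinase, fell to 4.07 and 4.30 on homozygous arrays, against 6.17 and 6.68 on wild-type arrays. Its heterozygous arrays, at 5.91 and 6.76, spanned the wild-type range (change -2.24 ± 0.32, adjusted p = 0.0343). With 1 follicular homozygous array left out the adjusted p reached 0.155 for Adgrl2, 0.206 for Plxna1, 0.338 for Adam19 and 0.290 for Notch1, Ptprs and Ltk.

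**Figure D2:**
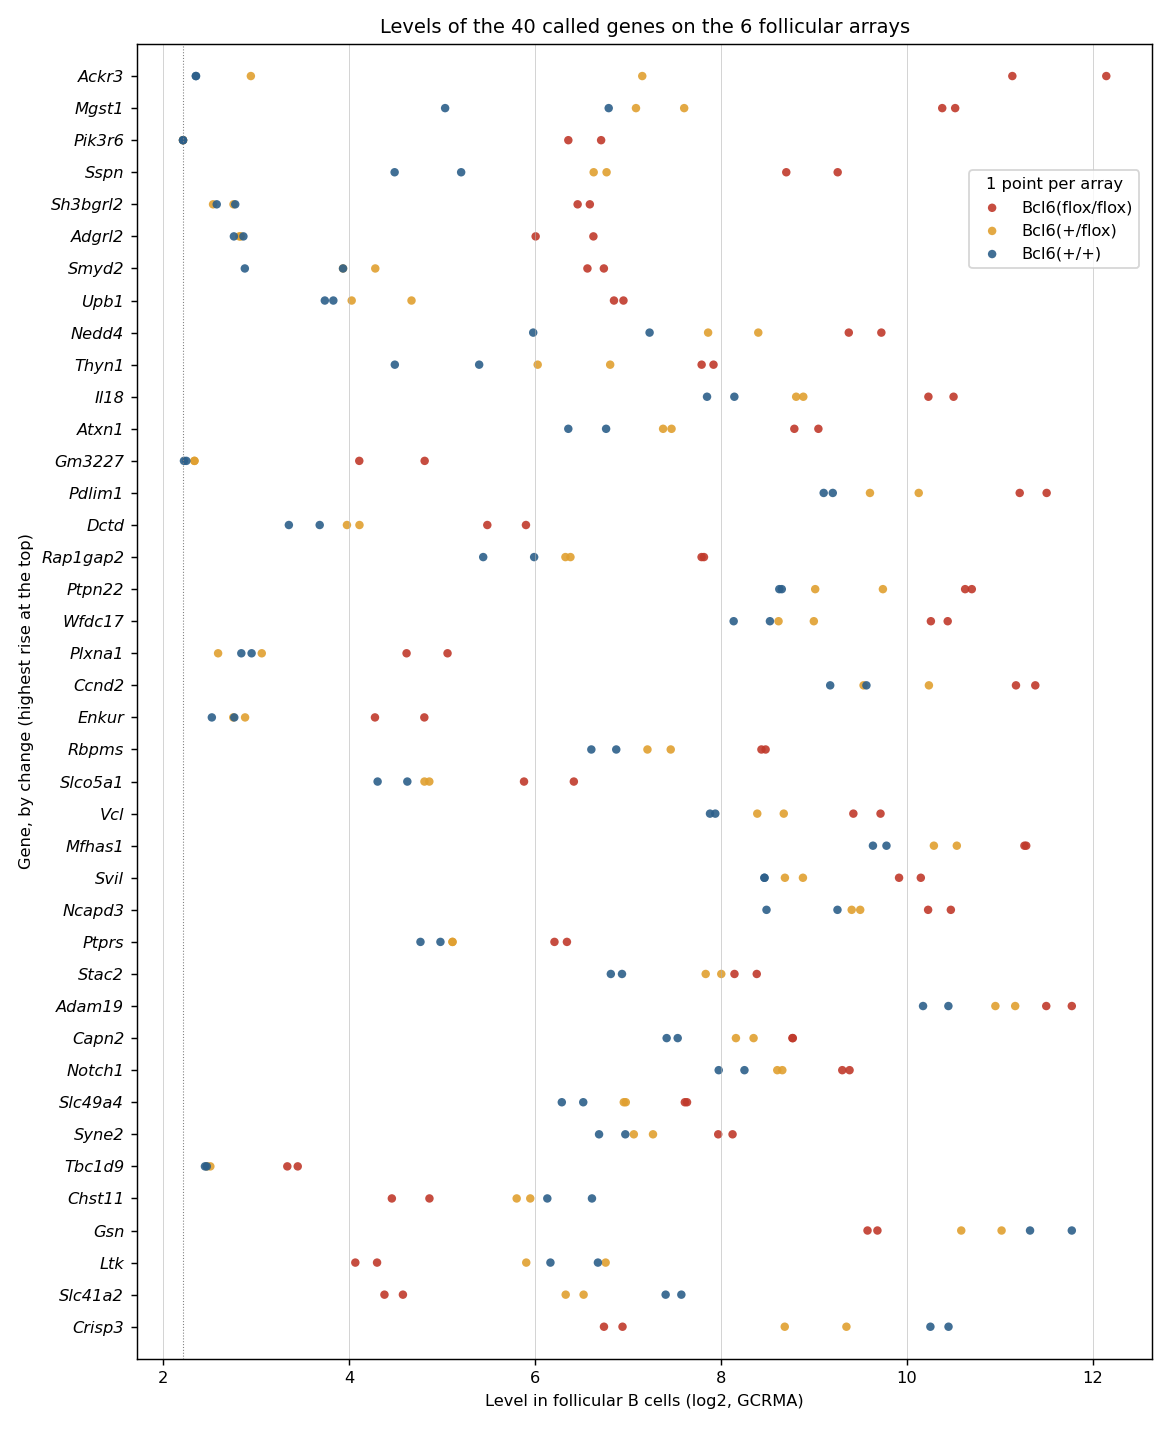
Level of each of the 40 called genes (rows, ordered by change) on the 6 follicular arrays (horizontal axis, log2), with 1 point per array and colours for homozygous (red), heterozygous (orange) and wild-type (blue). Red and blue points do not overlap in any row, and the dotted line marks the minimum of 2.21, where the wild-type points of Pik3r6 lie.

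Enzymes and transporters of small molecules formed another part of the called genes. Mgst1, a membrane-bound glutathione transferase that detoxifies lipid peroxides and electrophiles, was at 10.38 and 10.52 on the homozygous arrays, 7.61 and 7.09 on the heterozygous arrays, and 6.79 and 5.03 on the wild-type arrays. Its wild-type arrays differed from each other by more than its heterozygous arrays did, and both lay below all others (change 4.54 ± 0.51, adjusted p = 0.0110, and 0.0972 without homozygous replicate 1). Of 13 tested glutathione and detoxification enzymes Mgst1 was the 1 that rose, none fell, and the median change was 0.10, although 6 had a p under 0.05 before adjustment with a positive change and 0 with a negative one, against 4.57% and 2.41% of all tested genes. Among those not past the threshold, Gsto1, an omega-class glutathione transferase, was at 10.48 and 10.02 in homozygous, against 9.27 and 8.29 in wild-type cells (adjusted p = 0.222). Gclm, the modifier subunit of the enzyme that starts glutathione synthesis, was at 7.28 and 7.52 against 6.48 and 6.54 (adjusted p = 0.121).

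A pair of raised enzymes act on pyrimidines. Upb1, which carries out the last step of pyrimidine breakdown, was at 6.95 and 6.85 on the homozygous arrays, against 3.83 and 3.74 on the wild-type arrays (change 3.12 ± 0.37, adjusted p = 0.0117). Dctd, which deaminates dCMP to supply dUMP for thymidylate synthesis, was at 5.90 and 5.49 on the homozygous arrays, 4.11 and 3.98 on the heterozygous arrays, and 3.68 and 3.35 on the wild-type arrays. For Dctd the groups lay in order without overlap, and the change was 2.18 ± 0.20 (adjusted p = 0.00499, at most 0.0473 with 1 array left out), whereas the adjusted p of Upb1 reached 0.128 without homozygous replicate 1. Rises were also seen for Slco5a1, of the organic anion transporter family (1.68 ± 0.20), and Slc49a4, a lysosomal membrane transporter (1.22 ± 0.20). The call was lost without homozygous replicate 2 for Slco5a1 and without homozygous replicate 1 for Slc49a4. Slco5a1 was at 2.29 on every marginal zone array, a spread of 0 that can make its p too small. Its limma adjusted p was 0.183 with the 6 follicular arrays only.

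Slc41a2, a magnesium transporter, was the 1 lowered gene that kept its call whichever array was left out. It was at 4.58 and 4.38 on the homozygous arrays, 6.33 and 6.52 on the heterozygous arrays, and 7.57 and 7.41 on the wild-type arrays. Each genotype formed its own tight pair, and the level fell by 3.01 ± 0.16 log2 units (adjusted p = 1.03e-04, at most 0.00325 with 1 array left out). Of 9 tested magnesium transporters Slc41a2 was the 1 that fell, none rose, and the median change was -0.08. Its relative Slc41a3 was at 3.50 and 3.85 on homozygous arrays and 3.99 and 4.66 on wild-type arrays (adjusted p = 0.671). Chst11, which adds sulfate to chondroitin chains, fell to 4.46 and 4.86 in homozygous, against 6.61 and 6.13 in wild-type cells, with heterozygous arrays at 5.80 and 5.95 (change -1.71 ± 0.26, adjusted p = 0.0363, and 0.290 without homozygous replicate 1). It was the 1 of 11 tested enzymes of chondroitin and heparan sulfate synthesis that fell, none rose, and the median change was -0.08.

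Cell cycle genes were represented by Ccnd2, the D-type cyclin that drives resting B cells into the G1 phase and a known target of BCL6 repression. Its main probe set was at 11.38 and 11.18 on the homozygous arrays, 10.24 and 9.54 on the heterozygous arrays, and 9.57 and 9.18 on the wild-type arrays. Homozygous arrays were above the others, heterozygous and wild-type arrays overlapped, and the homozygous level was 3.75-fold that of wild-type (change 1.91 ± 0.28, adjusted p = 0.0363, and 0.290 without homozygous replicate 1). Of 14 tested G1 cyclins, kinases and inhibitors Ccnd2 was the 1 that rose, and none fell (median change 0.11). Of 23 replication and mitosis genes none passed in either direction, none had a p under 0.05 before adjustment, and the median change was 0.06. Mki67, a proliferation marker, was at 7.83 and 5.97 on the homozygous arrays and at 7.40 and 3.62 on the wild-type arrays, which overlap. Ncapd3, a condensin II subunit that shapes mitotic chromosomes, rose by 1.48 ± 0.24 (adjusted p = 0.0478, and 0.347 without homozygous replicate 1), with a second probe set at 7.08 and 7.13 against 5.34 and 5.54.

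Ccnd2 was also the 1 gene that rose among 17 tested genes of a list of BCL6 targets known mainly from germinal centre cells and lymphoma, with none lower and a median change of 0.12. Cd44, an adhesion receptor, was at 11.83 and 11.23 on the homozygous arrays, against 10.31 and 10.98 on the wild-type arrays (adjusted p = 0.704). Irf4, a plasma cell transcription factor, was at 12.90 and 11.57 against 10.27 and 12.35, with overlap. Prdm1, the plasma cell factor whose repression by BCL6 is the classic example, lay between 2.75 and 2.98 on the 4 arrays compared, close to the minimum. Of 12 tested corepressors and partners of BCL6 none passed, and the median change was 0.20. Bcor was at 9.17 and 9.51 in homozygous, against 9.87 and 10.75 in wild-type cells (adjusted p = 0.687).

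Genes of the actin cytoskeleton and of adhesion complexes were called in both directions. Sspn, a membrane protein of the dystrophin complex, was at 9.26 and 8.70 on the homozygous arrays, 6.77 and 6.63 on the heterozygous arrays, and 5.21 and 4.49 on the wild-type arrays (change 4.13 ± 0.62, adjusted p = 0.0363). Pdlim1, which binds alpha-actinin on stress fibres, was at 11.22 and 11.51 on the homozygous arrays, 9.60 and 10.13 on the heterozygous arrays, and 9.11 and 9.20 on the wild-type arrays (change 2.21 ± 0.36, adjusted p = 0.0498). For both genes the groups lay in the order of the number of floxed alleles. Vcl, the focal adhesion protein vinculin, was at 9.72 and 9.43 in homozygous, against 7.94 and 7.88 in wild-type cells, and Svil, the actin-binding protein supervillin, at 10.15 and 9.92 against 8.47 on both. Syne2, a nesprin that ties the nucleus to actin, rose by 1.22 ± 0.16, and Capn2, a calcium-dependent protease of adhesion proteins, by 1.30 ± 0.15. Gsn, the gene of gelsolin, which severs actin filaments, went the other way, at 9.68 and 9.58 on the homozygous arrays, 11.02 and 10.59 on the heterozygous arrays, and 11.33 and 11.78 on the wild-type arrays. Homozygous cells thus had 3.78-fold less Gsn signal, without overlap between genotypes (change -1.92 ± 0.22, adjusted p = 0.0114). In a list of 19 tested actin regulators, which does not hold Sspn, Vcl, Svil or Syne2, Pdlim1 rose, Gsn fell and the median change was -0.06. With homozygous replicate 1 left out, the adjusted p was 0.113 for Gsn, 0.124 for Capn2 and 0.290 for Sspn, Pdlim1, Vcl and Svil, and it was 0.171 for Syne2 without wild-type replicate 1.

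Intracellular signalling proteins that rose included Ptpn22, a tyrosine phosphatase that dampens antigen receptor signalling. It was at 10.70 and 10.63 on the homozygous arrays, 9.01 and 9.74 on the heterozygous arrays, and 8.63 and 8.66 on the wild-type arrays. The groups did not overlap (change 2.02 ± 0.32, adjusted p = 0.0427, and 0.290 without homozygous replicate 1), and Ptpn22 was the 1 of 12 tested inhibitory receptors and phosphatases that rose, with none lower. Cd72, an inhibitory coreceptor, was at 11.96 and 12.06 in homozygous, against 12.86 and 12.98 in wild-type cells, just outside the threshold (adjusted p = 0.0649). Of 19 tested components of B cell receptor signalling none passed in either direction, and their median change was -0.10.

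Nedd4, a HECT-domain ubiquitin ligase, was at 9.73 and 9.38 on the homozygous arrays, 8.40 and 7.86 on the heterozygous arrays, and 5.98 and 7.23 on the wild-type arrays (change 2.94 ± 0.40, adjusted p = 0.0255, and 0.237 without homozygous replicate 1). Smyd2, a lysine methyltransferase, was at 6.56 and 6.74 on the homozygous arrays, against 3.93 and 2.88 on the wild-type arrays (change 3.25 ± 0.34, adjusted p = 0.00870). Atxn1, a nuclear partner of the repressor Capicua, was at 9.05 and 8.79 on the homozygous arrays, 7.38 and 7.47 on the heterozygous arrays, and 6.76 and 6.36 on the wild-type arrays. Its genotypes did not overlap, and its call held with any 1 array left out (change 2.36 ± 0.20, adjusted p = 0.00248, at most 0.0364). Rap1gap2, which switches off the small GTPase Rap1, was at 7.79 and 7.82 in homozygous, against 5.44 and 5.99 in wild-type cells. Mfhas1, a leucine-rich repeat protein, rose by 1.57 ± 0.17, Rbpms, an RNA-binding protein, by 1.72 ± 0.18, Stac2, an adaptor of calcium channels, by 1.39 ± 0.17, and Tbc1d9, of a family of Rab GTPase activators, by 0.93 ± 0.14. Tbc1d9 was only at 3.33 and 3.45 on the homozygous arrays, against 2.47 and 2.45 on the wild-type arrays, and passed the filter through the marginal zone arrays alone. Smyd2, Rap1gap2, Mfhas1, Rbpms, Stac2 and Tbc1d9 each lost the call without either homozygous array (adjusted p up to 0.237).

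Sh3bgrl2, a small protein with a thioredoxin-like fold, was at 6.46 and 6.59 on the homozygous arrays, 2.54 and 2.76 on the heterozygous arrays, and 2.77 and 2.58 on the wild-type arrays. The heterozygous pair lay within the wild-type range or just below it, so the rise was seen only in the homozygous arrays (change 3.85 ± 0.16, adjusted p = 2.34e-05, at most 9.97e-04 with 1 array left out). Its relatives Sh3bgrl and Sh3bgrl3 had changes of -0.23 and -0.10, neither past the threshold. Thyn1 was at 7.79 and 7.92 on the homozygous arrays, against 5.40 and 4.49 on the wild-type arrays (change 2.91 ± 0.35, adjusted p = 0.0134, and 0.127 without homozygous replicate 1). Wfdc17, a small WAP-domain protein, was at 10.26 and 10.44 against 8.14 and 8.53, and Enkur and the predicted gene Gm3227 rose by 1.90 and 2.23 over wild-type levels near the minimum, both having met the filter through the homozygous arrays alone. Wfdc17 lost its call without homozygous replicate 2 (adjusted p = 0.0935), as did Enkur (0.0613), and Gm3227 without wild-type replicate 1 (0.178). Crisp3, a cysteine-rich secretory protein, fell to 6.94 and 6.74 on homozygous arrays, with 8.69 and 9.35 on heterozygous and 10.45 and 10.25 on wild-type arrays. Its 3 pairs did not overlap, the change of -3.51 ± 0.57 was the greatest downward change among the called genes (adjusted p = 0.0496), and the adjusted p was 0.290 without homozygous replicate 1.

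Many genes have more than 1 probe set on the array, and those not used to represent the gene gave a second reading of the same RNA. Of the 40 called genes 25 had other probe sets, 46 in all, and 19 of these, for 11 genes, were measured in follicular cells at 4 or more on at least 2 arrays. All 19 had changes in the direction of the representative probe set, with sizes of 0.71 to 3.75 log2 units. Of them 18 did not overlap between homozygous and wild-type arrays, against 18% of all tested genes upward and 15.9% downward. The genes were called on these same arrays, so this agreement is a description only. Ccnd2 had 6 measured probe sets with changes from 1.70 to 2.08, and Nedd4 had 3 with changes of 2.73, 2.94 and 3.75. The 4 measured probe sets of Gsn had changes from -2.17 to -1.87, while 2 others lay near the minimum. The 27 probe sets that were not measured carry no reading of the change. Probe sets of a gene share the RNA sample and are not replicates.

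**Figure D3:**
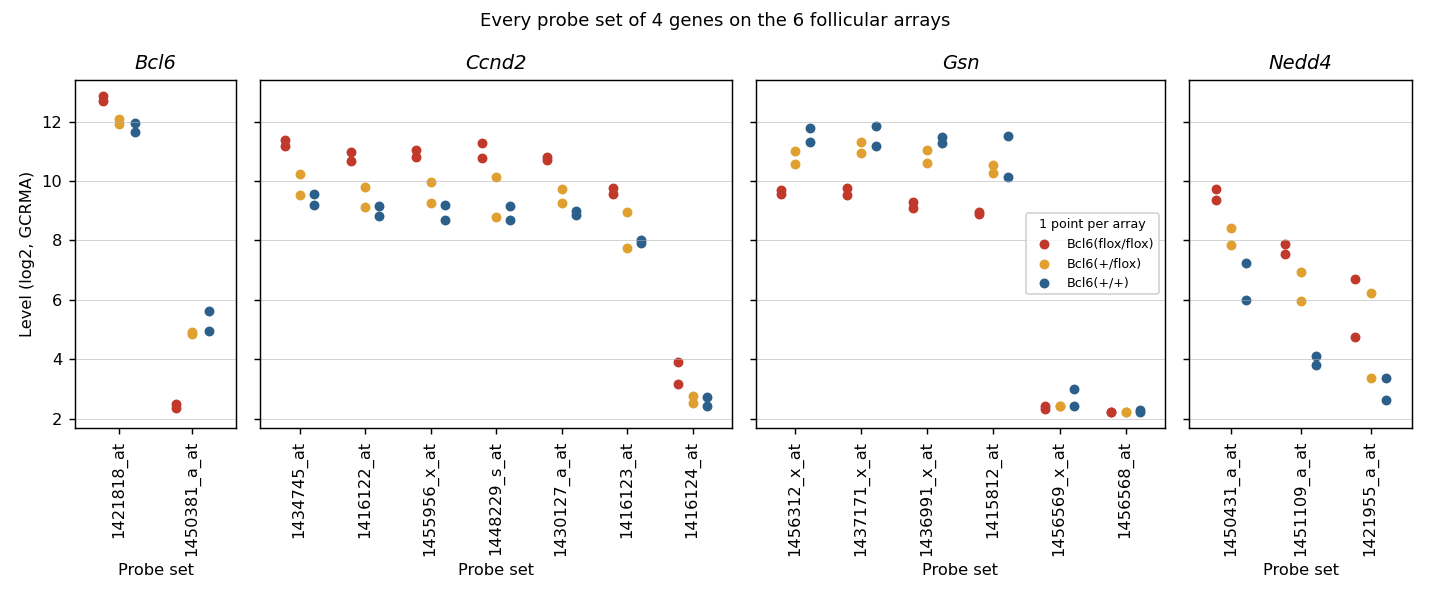
Level (vertical axis, log2) of every probe set of Bcl6, Ccnd2, Gsn and Nedd4 on the 6 follicular arrays, with 1 point per array and colours for homozygous (red), heterozygous (orange) and wild-type (blue). Both probe sets of Bcl6 separate the homozygous arrays but in opposite directions, whereas all measured probe sets of Ccnd2 and Nedd4 are higher and those of Gsn lower in homozygous arrays.

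The raised genes were searched for the core of the published BCL6 motif in the RefSeq promoter windows of build GRCm38.p6, which run from 250 bases before to 50 bases after each gene start. TTCNNNGAA reads the same on both strands and is shared with STAT factors. A window was found for 25 of the 35 raised genes, and 6 of them (24%) held it, namely Mgst1, Sspn, Adgrl2, Smyd2, Nedd4 and Ptpn22. It was in 0 of the 5 lowered genes, all of which had a window, in 8.05% of the 7663 tested genes that had a window, and in 8.30% of all 32851 windows. The narrower TTCNNAGAA, searched on both strands and contained in the first, was in 2 of the 25 (Nedd4 and Ptpn22), against 4.82% of tested genes. TTCNTAGAA was in 1 of the 25 (Nedd4), against 0.744%, and TTCCTAGAA in none, against 0.365%. Bcl6 itself had 4 matches of the core over 2 windows. The 60 bases around the match that lies before the gene start are shown for the 5 raised genes that have one there and for Bcl6, at 1 match in each of its windows, so that the spacer letters can be compared. Capitals mark the match, and each line is written 5′ to 3′ on the strand of the gene.
Smyd2 at chr1:189922343-189922402, minus strand: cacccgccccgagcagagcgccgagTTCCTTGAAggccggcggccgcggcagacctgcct
Ptpn22 at chr3:103860027-103860086, plus strand: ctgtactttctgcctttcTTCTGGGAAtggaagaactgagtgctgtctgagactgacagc
Adgrl2 at chr3:148954671-148954730, minus strand: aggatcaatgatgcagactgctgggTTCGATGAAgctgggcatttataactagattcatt
Sspn at chr6:145933953-145934012, plus strand: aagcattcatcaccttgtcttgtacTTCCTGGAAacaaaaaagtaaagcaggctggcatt
Nedd4 at chr9:72693250-72693309, plus strand: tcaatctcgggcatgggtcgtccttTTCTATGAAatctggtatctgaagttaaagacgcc
Bcl6 at chr16:23988936-23988995, minus strand: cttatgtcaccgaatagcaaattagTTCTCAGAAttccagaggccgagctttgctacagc
Bcl6 at chr16:23981371-23981430, minus strand: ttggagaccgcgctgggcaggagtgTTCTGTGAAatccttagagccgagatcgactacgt
The first base of the match lay at position -86 from the gene start in Smyd2, -232 in Ptpn22, -70 in Adgrl2, -144 in Sspn and -23 in Nedd4, and at -118 and -122 in the 2 windows of Bcl6. Both Bcl6 matches shown also match TTCNNAGAA. The Bcl6 window with the match at -122 also held TTCCTGGAA at -168 and TTCCGGGAA at -88. These are not shown, and neither matches TTCNNAGAA. A match describes the letters of the window and is not a measured binding site, and genes without one may hold it elsewhere.

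The heterozygous follicular arrays, which the contrast does not use, were set beside the called genes. The mean of the heterozygous arrays lay between those of the homozygous and wild-type arrays for 37 of the 40, as it did for 47.1% of all tested genes. Since the called genes were chosen because those 2 groups lie far apart, this count is a description only. Both heterozygous arrays lay between all homozygous and all wild-type arrays in 31 genes, among them Il18, Atxn1, Dctd, Sspn, Pdlim1, Gsn, Slc41a2 and Crisp3. The heterozygous mean was nearer to wild-type than to homozygous in 35 of 40, at a median of 31.1% of the distance from wild-type to homozygous. In 8 genes it was within 10% of that distance from the wild-type mean, as for Pik3r6, Sh3bgrl2 and Adgrl2.

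Beyond the pathways above, lists without any called gene were described by their medians. Of 18 tested genes of major histocompatibility complex class II and costimulation none passed, and the median was -0.15. Changes were below 0 in 16 of them, while 49.3% of all tested genes had changes above 0. H2-Eb2, a class II beta chain, was at 9.19 and 9.50 in homozygous, against 10.55 and 10.53 in wild-type cells (adjusted p = 0.0619), and Cd83, a surface protein that rises on activation, at 11.67 on both against 12.62 and 12.48 (adjusted p = 0.128). The classical chains H2-Aa and H2-Ab1 changed by -0.10 and -0.12, with overlap between groups. Of 24 type I interferon genes none passed, with a median of -0.43. Ifit2, an interferon-induced antiviral protein, was at 8.02 and 8.23 on the homozygous arrays, against 10.11 and 8.62 on the wild-type arrays, and the list mean was highest on wild-type replicate 1, at 8.97. Of 21 immediate early genes none passed, with a median of 0.42, and their mean was 11.26 and 10.00 on homozygous arrays and 8.74 and 10.72 on wild-type arrays, which overlap. Of 9 genes of the Bcl2 family none passed (median -0.02).

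Genes that mark B1 and memory-type B cells had the highest median of the 18 pathway lists, 0.65. Of its 16 tested members Ptpn22 alone rose and none fell, while 8 had a p under 0.05 before adjustment with a positive change and 1 with a negative one, against 4.57% and 2.41% of all tested genes. Ahnak, a giant scaffold protein, was at 12.45 and 12.30 on the homozygous arrays, 10.80 and 10.84 on the heterozygous arrays, and 9.80 and 9.98 on the wild-type arrays. The 3 genotypes were clearly apart, yet the gene missed the threshold in the model over 12 arrays (change 2.48 ± 0.53, adjusted p = 0.128) and passed it in a model of the 6 follicular arrays alone (adjusted p = 0.0294). S100a6, a calcium-binding protein, was at 10.89 and 10.50 on the homozygous arrays, against 7.78 and 8.13 on the wild-type arrays (adjusted p = 0.143). S100a10, its relative, was at 13.73 and 13.75 against 12.97 and 13.02 (adjusted p = 0.306), and Itgb1, the beta-1 integrin, at 7.86 and 7.56 against 7.07 and 6.87 (adjusted p = 0.121). The member with the negative change was Pdcd1lg2, at 6.85 and 7.08 on the homozygous arrays, against 7.97 and 8.01 on the wild-type arrays (change -1.02 ± 0.43, limma adjusted p = 0.693). Cd5 and Cd80, which mark B1 and memory cells, were at or near the minimum on the follicular arrays. The list was drawn up with results of these arrays known, and its direction is a description.

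**Figure D4:**
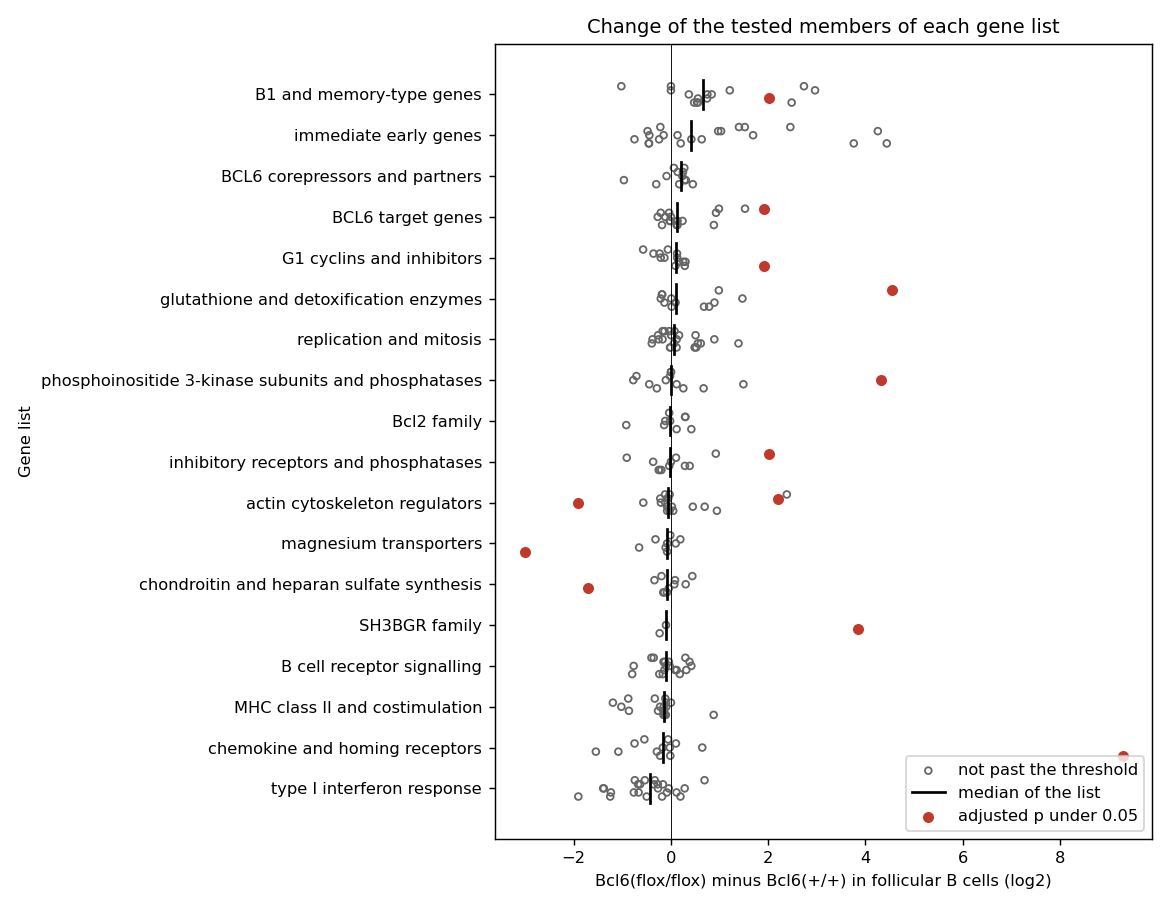
Change between homozygous and wild-type follicular cells (horizontal axis, log2) for each tested member of 18 gene lists (rows, ordered by median), with filled points for members past an adjusted p of 0.05 and a bar at the median. Medians run from -0.43 to 0.65, and 11 of the lists hold at least 1 called gene, while 0.43% of all tested genes were called. The lists were chosen with earlier results of these data known, so this count is a description only.

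Marginal zone B cells are the other mature B cell type of the spleen and had Ackr3 at 12.76 and 12.01 on their wild-type arrays, so their markers were examined beside the rises. Of 10 tested marginal zone markers none passed, and 9 had positive changes, against 49.3% of all tested genes. A positive change with a limma p under 0.05 before adjustment was seen for 3 (Cd36, Cd1d1 and Plxnd1), against 4.57% of all tested genes. The median change was 0.72. The markers were chosen with earlier results of these data known, and their direction is a description. The mean of the list was 7.50 and 7.51 on the homozygous arrays, 7.19 and 7.45 on the heterozygous arrays, and 7.06 and 7.19 on the wild-type arrays. Cd1d1, which presents lipids, was at 12.01 and 12.24 in homozygous, against 11.39 and 10.83 in wild-type follicular cells. Cd9, a tetraspanin, was at 8.21 and 7.33 against 7.21 and 7.15, and Myof, the membrane repair protein myoferlin, at 4.56 and 4.17 against 4.11 and 4.57. In wild-type marginal zone cells Cd9 was at 11.87 and 11.97 and Myof at 9.63 and 10.58. S1pr3, a sphingosine receptor, was at 4.51 and 5.78 on the homozygous and 6.93 and 6.44 on the wild-type follicular arrays. Marco and Rhoc were near the minimum in both cell types and carry no reading. The part of marginal zone cells in the rises was not tested. The minimum differed between the cell types (2.212622 in follicular and 2.219238 in marginal zone arrays), as it would with separate normalization, and levels set across them carry any such difference.

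Levels of the called genes in marginal zone cells were read from the heterozygous arrays of both cell types, which do not enter the contrast. Of the 35 raised genes, 21 (60%) were higher in marginal zone than in follicular heterozygous arrays, against 38.2% of all tested genes, and 11 (31.4%) were higher by more than 1 log2 unit, against 9.76%. Another 6 (17.1%) were lower by more than 1 unit, against 9.93%. Among the higher ones were Ackr3 (12.39 in marginal zone and 5.05 in follicular cells), Tbc1d9 (9.84 and 2.49), Smyd2 (9.22 and 4.11), Atxn1 (10.78 and 7.42) and Dctd (6.72 and 4.04). Among the lower ones were Wfdc17 (2.28 in marginal zone and 8.81 in follicular cells), Stac2 (2.42 and 7.92), Rbpms (4.30 and 7.34) and Sspn (3.96 and 6.70). The raised genes thus held both genes with high and genes with low levels in the marginal zone arrays.

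The same contrast was taken in marginal zone cells, where 6 of 9307 genes (0.0645%) passed, to show where the follicular result differed. Of the 40 genes 3, Sh3bgrl2, Slc41a2 and Chst11, were also called there, with changes of 2.95 ± 0.16, -2.54 ± 0.16 and -2.45 ± 0.26. The change had the same sign in both cell types for 34 of the 40, a share not counted over all tested genes. Some genes not called there still changed, such as Plxna1 (1.55 ± 0.29) and Il18 (1.26 ± 0.18). The follicular change was the larger in 39, but the genes were chosen by that change. The difference of the deletion effect between the cell types was itself tested, and 1 gene passed (0.0107% of 9307). The test takes all 12 arrays as independent, and the labels do not say whether both cell types were sorted from the same mice. Pik3r6 changed by 4.15 ± 0.24 log2 units more in follicular cells (limma adjusted p = 6.92e-04), with a marginal zone change of 0.17 ± 0.17. Pik3r6 met the filter on low values only through the homozygous follicular arrays, so it could enter this test only if high there. Its spread was 0 in the wild-type and heterozygous groups of both cell types, which can make the p too small. For Ackr3 the difference was 8.36 ± 1.53 and did not pass (adjusted p = 0.278). Its marginal zone level was already 12.38 in wild-type arrays, where the change was 0.93 ± 1.08. The difference did not pass either for Atxn1 (2.30 ± 0.28, adjusted p = 0.115) or Smyd2 (2.73 ± 0.48, adjusted p = 0.258), which changed by 0.06 and 0.52 in marginal zone cells. The Gapdh difference between 3' and 5' probe sets was 6.90 on replicate 1 of the wild-type marginal zone arrays, outside the follicular range given above. The number of genes whose effect differed was 107 when marginal zone wild-type replicate 2 was left out, so that this array stood for its group alone, and 1 or 2 when any other array was.

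**Figure D5:**
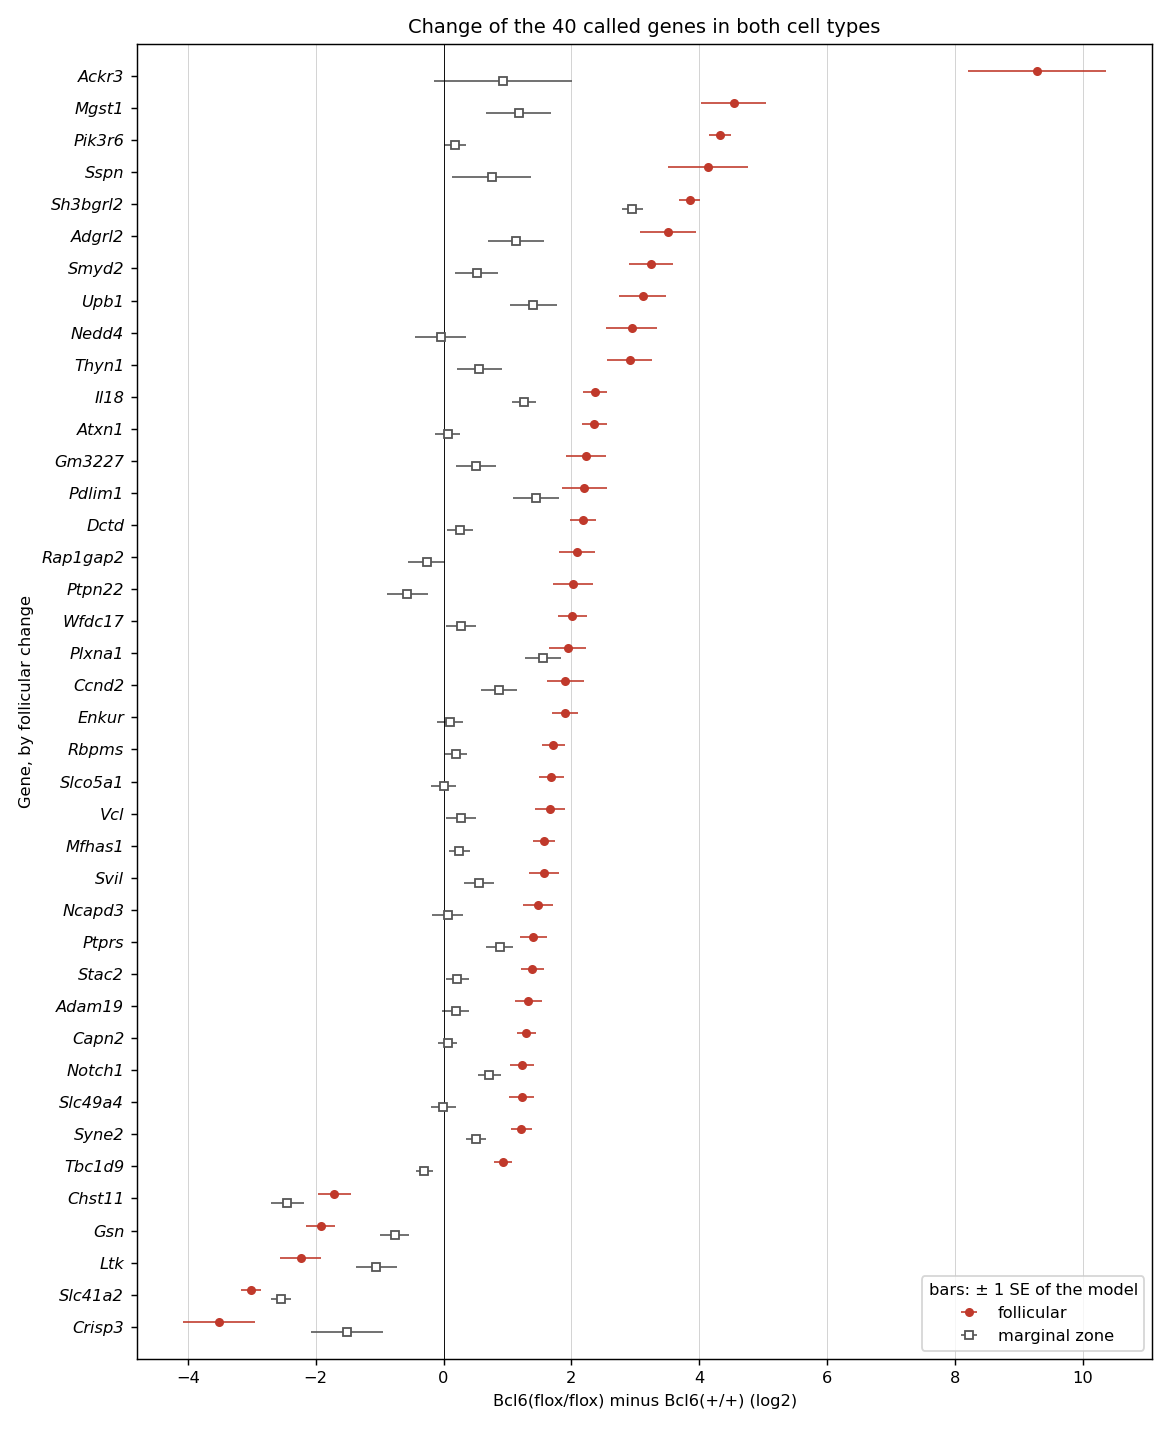
Change between homozygous and wild-type cells (horizontal axis, log2) for the 40 called genes (rows), in follicular cells (filled circles) and in marginal zone cells (open squares), with bars of ± 1 SE of the model. The difference between the cell types passed its test for Pik3r6 alone, while Chst11, Slc41a2 and Sh3bgrl2 passed in each cell type. Pik3r6 could enter that test only because it was high on the homozygous follicular arrays, and its p can be too small.

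The calls rested on few arrays. The filter on low values was set once on all 12 arrays, and Pik3r6 met it only through the homozygous follicular arrays. When each of the 12 arrays was left out in turn, 6 of the 40 genes kept the call every time, namely Pik3r6, Sh3bgrl2, Slc41a2, Il18, Atxn1 and Dctd. Leaving out homozygous replicate 1 cost 32 of the 40 calls (adjusted p of the lost genes from 0.0803 to 0.347), and homozygous replicate 2 cost 34 (0.0613 to 0.278). Wild-type replicate 1 cost 27 (0.0615 to 0.296) and wild-type replicate 2 cost 29 (0.0584 to 0.202). Arrays outside the contrast enter only through the spread and the degrees of freedom: either follicular heterozygous array cost 15 calls (0.0583 to 0.0973), either marginal zone heterozygous array 18 (0.0604 to 0.108), either marginal zone homozygous array 16 (0.0532 to 0.109) and either marginal zone wild-type array 1, Ncapd3 (0.0544). The changes themselves stayed between 0.742 and 1.26 times their values with all arrays. With the 6 follicular arrays alone, 3 of the 40 passed, namely Pik3r6, Sh3bgrl2 and Slc41a2, and all 40 had a p under 0.05 before adjustment (at most 0.00499). Ahnak and Car2 also passed in that model. Car2, a carbonic anhydrase abundant in red cells, was at 4.43 and 4.56 on the homozygous arrays, 7.23 and 7.44 on the heterozygous arrays, and 8.15 and 8.49 on the wild-type arrays. The erythroid genes Hba-a1 and Alas2 were at the minimum throughout. Of the 2 erythroid genes tested, Car2 had a negative and the other a positive change, both with a limma p under 0.05 before adjustment. The part of red cells was not tested.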

How the data were processed

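The authors deposited a log2 level for each probe set of an Affymetrix array. The submitters' processing notes name GCRMA, whose version is not given in the sources used here. Per the labels' protocols, TRIZOL was used for RNA extraction and a 3' IVT kit for labelling. Of 45101 probe sets, 34958 had 1 gene symbol, 932 had several and 9211 had none listed. For each of 18194 genes the probe set of highest mean level was kept, and the 9307 genes that reached a log2 level of 4 on 2 or more of the 12 arrays were tested. Group means of 6 groups of 2 arrays were fitted by lmFit and eBayes of limma 3.58.1, run in R 4.3.3, with 6 residual degrees of freedom, two-sided p-values, Benjamini-Hochberg adjustment over all genes tested and a threshold of 0.05. A gene at the minimum in some groups has an SD near 0 there, which lowers the shared spread, so that its p can be too small. The number of arrays limits the precision, and the labels give no batch. Named genes were Bcl6, every gene called in follicular cells, members of the same family, and up to 4 members of each list with the smallest p. Other genes, such as Ski, Samsn1, Prdm1, Cxcr4, S1pr4, Gpr183, H2-Aa, H2-Ab1, Cd80, Cd5, E2f1, Pdcd1lg2 and single marker genes, were named after their values were seen. The groups, gene lists and rules were chosen with earlier results of these data known. The method was tested on simulated data with independent noise on each array. That test does not cover deviations that arrays of different groups share. The alternatives changed how genes were filtered, how a probe set was chosen, the moderation of variances, weights and centring of arrays, and which arrays entered, or added a replicate block. With 1 array left out, the lone array of its group is assumed to vary like the other groups. Some genes of the lists were not analysed here.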

Additional observations from a re-analysis of the deposited data

Results flagged for a closer look

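The change of Pik3r6 with homozygous deletion differed between the cell types by the test of the difference itself. It was 4.32 ± 0.17 in follicular cells and 0.17 ± 0.17 in marginal zone cells, a difference of 4.15 ± 0.24 log2 units (limma adjusted p = 6.92e-04). Pik3r6 was at the minimum on all wild-type and heterozygous follicular arrays, so the size of the change depends on the background correction, and it met the filter on low values only through the homozygous follicular arrays. Its spread there was 0, which can make the p too small.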

How the results depend on the processing

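The direction of change of the 40 genes was the same in all 24 alternatives for which a value could be had. No setting but the centring of arrays could have reversed it, since homozygous and wild-type arrays did not overlap for any of the 40. This sameness is therefore no support for the calls. The number of genes called depended on the setting. It was 17 with no filter on low values (13 of the 40 among them), 5 with the 6 follicular arrays only (3 of the 40), 0 with the 4 arrays compared only (625 genes with limma p under 0.05 before adjustment), 10 with the 6 follicular arrays when genes were also filtered on those alone, which was added after seeing the data (8 of the 40), and from 7 to 58 with 1 array left out. It was 36 to 56 with the other filters, every probe set tested (36 probe sets of 32 genes), moderation with a trend, array weights and centring. With a replicate block it was 61, of which 37 were among the 40. Deviations of same-numbered arrays correlated at -0.26 between homozygous and wild-type follicular groups and at up to 0.77 (homozygous and heterozygous follicular groups) over 15 pairs of groups, 8 of them over 0.1. The numbers were not taken to pair the samples, since not every pair was, and the model does not account for the deviations that groups share. With crossed numbers, also added after seeing the data, the count was 49. The count of genes whose effect differed between cell types was 6 with no filter and from 1 to 107 with 1 array left out. The change of -2.86 of the lower Bcl6 probe set lost its call with a trend and robust moderation (adjusted p = 0.0972) and with the follicular arrays only (0.379), and ran from -3.20 to -2.52 with 1 array left out. The causes were not tested, apart from the fewer arrays or genes that a setting leaves.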
